A study of Mus musculus with 6 samples.

Results

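The genes described here are 9 genes of B cells and antibodies: Ighm, Igkc, Jchain, Cd79a, Cd79b, Ms4a1, Pou2af1, Mzb1 and Ebf1. They are the rows of the deposited count table whose Ensembl identifier, with its version removed, belongs to 1 of these symbols, and they make up 9 of 53715 genes in the table. Polyadenylated RNA was sequenced from livers of 8-week-old male F1 mice of the ICR strain, an outbred stock. The libraries fall into 3 labelled FR F1 and 3 labelled control F1. The labels do not spell out FR; they give the stress of the FR F1 group as paternal famine and that of the other group as control, while the title of the study speaks of an overdiet. The comparison asks whether the genes differed in livers of F1 males of the FR group from those of control F1 males. Nothing in the labels says that the libraries of a group came from separate animals, and the p-values below then reflect the spread of these libraries alone, which may be technical.

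B cells carry an antibody on their surface as their antigen receptor, and plasma cells, which arise from them, secrete it. An antibody pairs heavy chains with kappa or lambda light chains. The constant part of the heavy chain sets the class, and the variable part, assembled from V segments among others, binds the antigen. The liver holds few B cells beside its hepatocytes, in the blood of its sinusoids and around the portal tracts, and polymeric IgA is carried into bile.

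Total counts were 2670498, 2730160 and 2468857 in FR F1 replicates 1, 2 and 3, against 2377972, 2279755 and 2569934 in control F1 replicates 1, 2 and 3. A single count is therefore worth 0.368 to 0.451 CPM (the library's counts scaled to a common total), and CPM below are scaled by TMM factors. The summed CPM of 8 hepatocyte genes was 4470 to 4748 in FR F1 and 4183 to 5205 in control F1 livers. The values of some of them may be understated, as described below. Of 13022 genes with enough counts to be tested, 109 changed, which is 0.837%, by edgeR's quasi-likelihood test at a threshold of 0.05 on p adjusted after Benjamini and Hochberg. The share called higher in FR F1 was 0.392% and the share called lower 0.445%.

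All 9 B cell and antibody genes had counts, but only Ighm, Igkc and Jchain passed the filter on low counts. In none of the 3 did the adjusted p pass the threshold, and 0 passed under DESeq2 or limma-voom, which called 2.75% and 0.791% of genes. Without the filter Ighm and Jchain passed, with adjusted p of 0.00131 and 4.46e-05 (edgeR), in a fit that called 4.04% of 30930 genes. Their log2 fold changes hardly moved in that fit, at 1.33 and 1.87. The standard errors (SE) were smaller, at 0.31 against 0.46 with the filter for Ighm and 0.37 against 0.61 for Jchain. These passes therefore reflect a smaller estimate of spread for the same counts. Ighm and Jchain had an unadjusted p under 0.05 and were higher in each FR F1 library than in any control F1 library. Of all tested genes, 9.02% were higher in FR F1 at an unadjusted p under 0.05, and 12.5% had FR F1 libraries wholly above control F1 libraries. In bulk RNA, fewer cells of a type and less RNA per cell cannot be told apart.

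The antibody constant genes lie close together and resemble each other, so it matters where a read can be placed. Shown here are Ighg2b and Ighg2c, constant genes of 2 IgG subclasses and the heavy chain genes that share most sequence, on the minus strand of chr12:113302965-113307933 and chr12:113285325-113288932 of mm10. Their longest identical run, 78 bases, is shown in capitals with 24 bases of coding sequence on each side, from the GENCODE M21 transcripts.
Ighg2b: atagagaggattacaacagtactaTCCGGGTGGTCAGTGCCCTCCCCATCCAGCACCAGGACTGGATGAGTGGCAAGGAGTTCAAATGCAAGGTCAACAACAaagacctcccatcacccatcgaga
Ighg2c: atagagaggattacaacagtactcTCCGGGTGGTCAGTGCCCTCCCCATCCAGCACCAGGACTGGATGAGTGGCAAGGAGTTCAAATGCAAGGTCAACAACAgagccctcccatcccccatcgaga
Of the 50-base words of Ighg2c, 5.49% also occur in Ighg2b, and the sources used here do not give the authors' rule for reads that match both. The annotation holds Ighg2c, while some mouse strains carry Ighg2a in its place, and the labels do not say which the ICR mice carry. Ighm and Igkc share no 50-base word with another gene, and Jchain shares 0.288% of its words. Among light chain genes, Iglc2 shares 7.65% and Iglc3 22.3% of its words with other genes.

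Ighm encodes the constant part of the mu heavy chain of IgM, the first antibody class that a B cell makes. It lies on the minus strand of chr12:113418558-113422730. It had 100, 55 and 107 counts in FR F1 replicates 1 to 3, against 33, 12 and 52 in control F1 replicates 1 to 3. The lowest FR F1 library, at 20.3 CPM, was just above the highest control F1 library, at 19.9 CPM. Ighm averaged 33.9 ± 12.2 CPM in FR F1 livers and 13.2 ± 7.33 CPM in control F1 livers (SD, n = 3 each). Its log2 fold change was 1.34 ± 0.46 (SE), with an adjusted p of 0.200 by the edgeR quasi-likelihood test.

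Jchain encodes the joining chain that links secreted IgM and IgA units into polymers and lets them be carried across epithelia. It lies on the minus strand of chr5:88519809-88527891. Its counts were 128, 47 and 33 in FR F1, against 29, 11 and 10 in control F1 replicates 1 to 3. FR F1 replicate 1 stood above every other library, and the groups were close where they met. The mean was 26.2 ± 18.8 CPM in FR F1 and 7.12 ± 4.75 CPM in control F1 livers (SD, n = 3 each). The log2 fold change was 1.89 ± 0.61 (SE) with an adjusted p of 0.182 (edgeR). The ratio of mean CPM, 3.68, was 2.17 without FR F1 replicate 1.

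Igkc encodes the constant part of the kappa light chain, which most mouse antibodies use, and lies on the plus strand of chr6:70726435-70726966. It had 168, 64 and 75 counts in FR F1, against 85, 41 and 90 in control F1 replicates 1 to 3. The groups overlapped, with FR F1 replicates 2 and 3 inside the control F1 range. Igkc averaged 39.1 ± 20.9 CPM in FR F1 and 30.0 ± 10 CPM in control F1 livers (SD, n = 3 each), a log2 difference of 0.38 ± 0.40 (SE) with an adjusted p of 0.629 (edgeR). Without FR F1 replicate 1 the log2 fold change was -0.13.

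**Figure D1:**
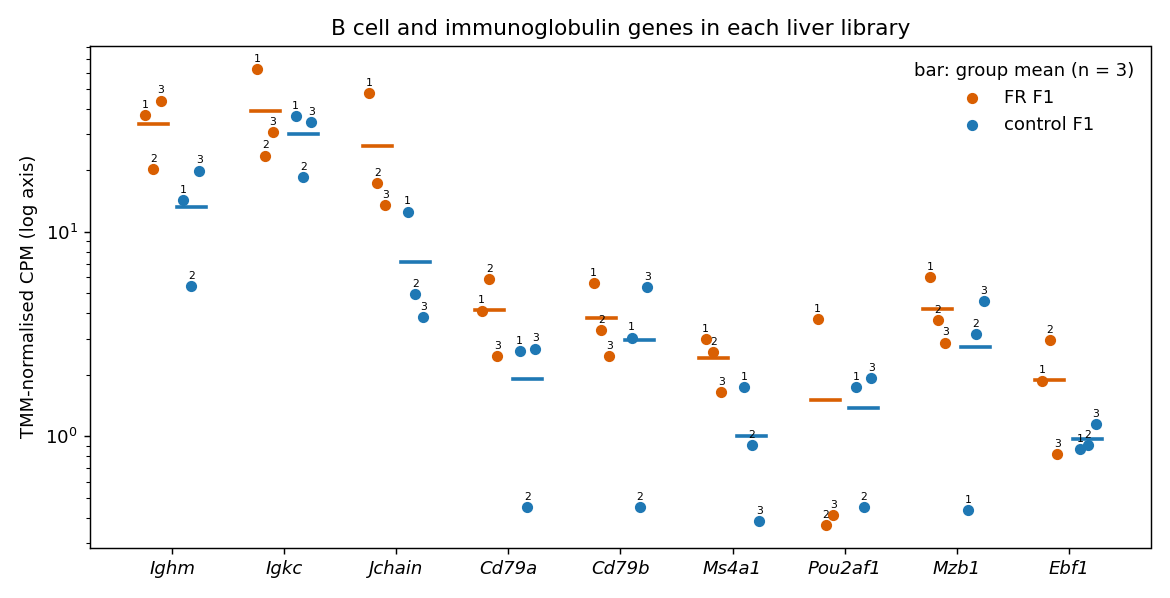
TMM-normalised CPM of each of the 9 B cell and antibody genes in the 3 FR F1 and 3 control F1 libraries. All genes share a log axis. Points are libraries, labelled by replicate number, and bars are means. Ighm and Jchain are the genes whose FR F1 libraries all lie above the control F1 libraries, and FR F1 replicate 1 is the highest library for 6 of the 9 genes.

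The 6 genes below the filter held 65, 51 and 26 counts together in FR F1, against 24, 14 and 42 in control F1 replicates 1 to 3. Summed, they were 24.3, 18.8 and 10.7 CPM in FR F1, against 10.4, 6.31 and 16.1 CPM in control F1, and the groups overlapped. Each of the 6 also overlapped on its own. FR F1 had the higher mean in all 6, and in 58.0% of 2642 genes with 20 to 60 counts in all. Fitted without the filter, none of the 6 passed the adjusted threshold, and the counts are too few for a firm statement on any of them.

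Cd79a and Cd79b encode the signalling partners of the surface antibody. Cd79a (chr7:24897381-24902197, plus strand) had 11, 16 and 6 counts in FR F1, against 6, 1 and 7 in control F1. Cd79b (chr11:106311341-106314762, minus strand) had 15, 9 and 6 counts in FR F1, against 7, 1 and 14 in control F1. Control F1 replicate 2 was the lowest library for both, and control F1 replicates 1 and 3 lay within the FR F1 range for both. Of the 50-base words of Cd79a, 8.31% also occur in the predicted gene Gm32220.

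Ms4a1, which encodes the B cell surface protein CD20 (chr19:11249675-11266241, minus strand), had 8, 7 and 4 counts in FR F1, against 4, 2 and 1 in control F1. Its groups overlapped by a narrow margin, with 1.64 CPM in FR F1 replicate 3 and 1.73 CPM in control F1 replicate 1. Without the filter its log2 fold change was 1.23 ± 0.75 (SE).

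Mzb1 encodes an endoplasmic reticulum protein that helps antibody chains to assemble. It lies on the minus strand of chr18:35647267-35649367. It had 16, 10 and 7 counts in FR F1, against 1, 7 and 12 in control F1, and control F1 replicate 1 alone lay far below the rest. Its exons overlap those of Spata24, not analysed here, over 695 of 1215 bases on the same strand, so its reads could be divided with that gene.

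Ebf1 and Pou2af1 encode a transcription factor that commits cells to the B lineage and a coactivator that works with octamer-binding factors in B cells. Ebf1 (chr11:44617317-45008091, plus strand) had 5, 8 and 2 counts in FR F1, against 2, 2 and 3 in control F1. Pou2af1 (chr9:51213708-51240080, plus strand) had 10, 1 and 1 counts in FR F1, against 4, 1 and 5 in control F1, so that 10 of its 12 FR F1 counts came from replicate 1. Ebf1 is also made by stromal cells. The summed CPM of 15 stellate cell and fibroblast genes was 996, 1130 and 921 in FR F1, against 559, 404 and 634 in control F1, and FR F1 replicate 2 was highest in both measures. For Ebf1, FR F1 replicate 3 was the lowest library in CPM only, as its 2 counts equalled those of control F1 replicates 1 and 2. The stellate sum of FR F1 replicate 3 lay above every control F1 library. The part of stromal cells in the Ebf1 counts was not tested.

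Per kilobase of exon, the level of Igkc was the highest, at 73.4 CPM per kb in FR F1 and 56.3 in control F1 livers. Ighm followed, at 18.0 in FR F1 and 7.01 in control F1, and Jchain at 10.4 in FR F1 and 2.83 in control F1. Mzb1, Cd79b and Cd79a lay between 2.65 and 3.44 CPM per kb in FR F1 and between 1.31 and 2.25 in control F1. Pou2af1 had 0.591 in FR F1 and 0.537 in control F1, Ms4a1 0.389 in FR F1 and 0.163 in control F1, and Ebf1 0.193 in FR F1 and 0.0997 in control F1. Over the 6 libraries Igkc ranged from 34.7 to 118 CPM per kb and Ighm from 2.87 to 23.3, so these neighbours did not overlap. Every other pair of neighbours in the order overlapped.

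The 9 genes varied among libraries of a group as well as between groups. FR F1 replicate 1 was the highest of the 6 libraries in 6 of the 9, against 14.2% of all tested genes and 20.4% of genes with 20 to 60 counts. Control F1 replicate 2 was the lowest in 4 of the 9, against 14.1% of tested genes and 21.8% of genes with 20 to 60 counts. The mean was higher in FR F1 for 9 of 9 genes, for 6 without FR F1 replicate 1 and for 7 without control F1 replicate 2. Igkc, Cd79b and Pou2af1 were the genes that turned without FR F1 replicate 1, with ratios of mean CPM of 0.907, 0.979 and 0.285. The summed CPM of all 9 was 172, 80.0 and 98.9 in FR F1, against 74.1, 35.2 and 74.4 in control F1.

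The other heavy chain constant genes tell which antibody classes the counts came from. With Ighm, 6 of 8 constant genes were tested and 0 passed the adjusted threshold; 3 had an unadjusted p under 0.05, all higher in FR F1. The median log2 fold change was 1.15, beside 0.00 for all tested genes. Summed over the 8, the level was 242, 66.0 and 89.5 CPM in FR F1, against 64.2, 18.5 and 83.6 CPM in control F1. The ratio of means was 2.39, and it was 1.40 without FR F1 replicate 1 and 1.79 without control F1 replicate 2.

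IgG genes together were the most counted heavy chain class in every library but FR F1 replicate 3, where Ighm had 107 counts against 75. Ighg2b had 174, 29 and 42 counts in FR F1, against 10, 4 and 31 in control F1, and Ighg2c had 84, 11 and 11 in FR F1, against 3, 1 and 15 in control F1. For both, replicate 1 of FR F1 held most of the counts of its group and control F1 replicate 3 reached into the FR F1 range. Their log2 fold changes were 2.33 ± 0.81 and 2.34 ± 1.01 (SE), with adjusted p of 0.205 and 0.277 (edgeR), and 1.20 and 0.73 without FR F1 replicate 1. Ighg2b passed under DESeq2, with an adjusted p of 0.0428. Ighg1, the constant gene of IgG1, had 143, 40 and 19 counts in FR F1, against 40, 17 and 37 in control F1; its log2 fold change was 0.95 ± 0.66 (SE), adjusted p 0.465 (edgeR), and -0.20 without FR F1 replicate 1.

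Igha, the constant gene of IgA, had 115, 26 and 18 counts in FR F1, against 34, 3 and 56 in control F1. Ighd, of IgD, which naive B cells carry beside IgM, had 25, 14 and 18 in FR F1, against 19, 2 and 18 in control F1. The groups overlapped in both genes, with log2 fold changes of 0.66 ± 0.87 and 0.43 ± 0.61 (SE). For Igha the log2 fold change was -0.55 without FR F1 replicate 1, and for Ighd it was -0.06 without control F1 replicate 2. Ighg3 had 7, 2 and 3 counts in FR F1, against 3, 2 and 9 in control F1. Ighe, of IgE, had 2 counts in FR F1 replicate 2 and 6 in control F1 replicate 1. It was listed at 0 in FR F1 replicates 1 and 3 and in control F1 replicates 2 and 3. Ighg3 and Ighe missed the filter, and without it their log2 fold changes were -0.33 ± 0.71 and -1.58 ± 1.24 (SE).

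As a share of all heavy chain constant counts, IgM and IgD together made up 19.3%, 38.5% and 57.3% in FR F1 replicates 1 to 3, against 35.1%, 34.1% and 32.1% in control F1 replicates 1 to 3. The exact 95% Clopper-Pearson intervals in FR F1 were 16.3% to 22.5%, 31.4% to 46.1% and 50.5% to 64.0%, and those of replicates 1 and 3 lay far apart. In control F1 they were 27.5% to 43.4%, 20.1% to 50.6% and 26.0% to 38.8%, all overlapping. These intervals cover counting error only. IgG genes took 63.0%, 45.8% and 34.4% in FR F1, against 37.8%, 58.5% and 42.2% in control F1, and Igha 17.7%, 14.5% and 8.26% in FR F1, against 23.0%, 7.32% and 25.7% in control F1. The makeup thus differed more among the FR F1 livers than among the control F1 livers in the IgM and IgD share, and the groups overlapped in all 3 shares.

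**Figure D2:**
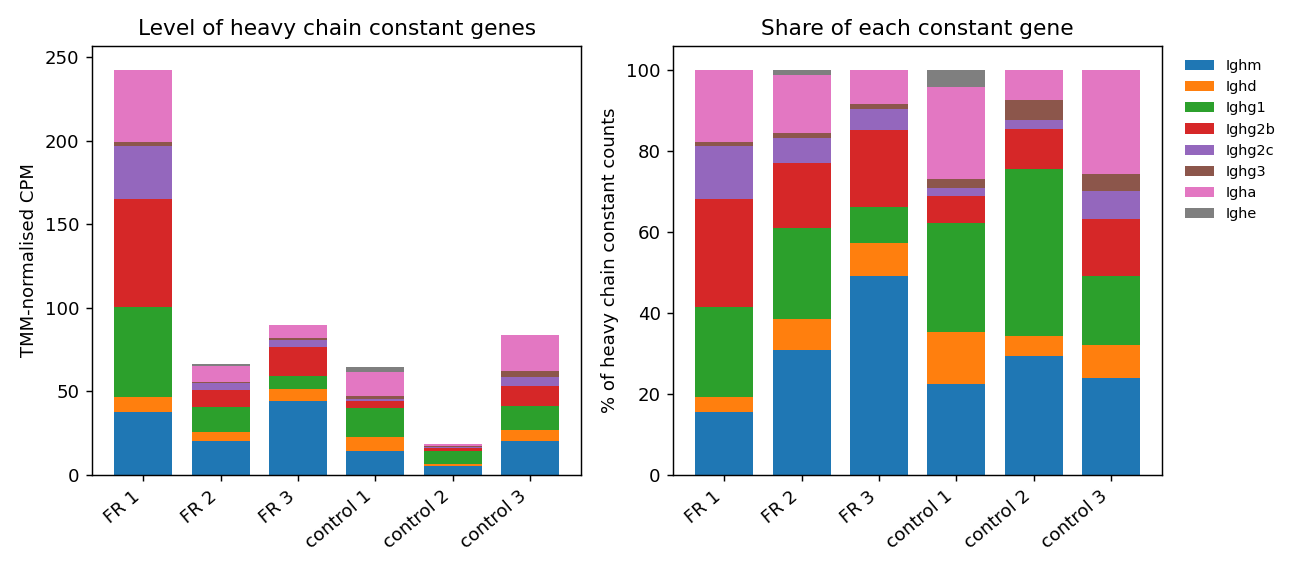
Heavy chain constant genes in each library, stacked by gene, as TMM-normalised CPM (left) and as a percentage of all heavy chain constant counts (right). FR F1 replicate 1 has the tallest bar, 242 CPM, mostly of IgG and IgA genes, while Ighm takes the largest part of the FR F1 replicate 3 bar.

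Relative to heavy chain counts, kappa light chain counts were lower in the 3 FR F1 libraries than in the 3 control F1 libraries. Counts of Igkc per count of Ighm were 1.68, 1.16 and 0.701 in FR F1, against 2.58, 3.42 and 1.73 in control F1. Each FR F1 library lay below each control F1 library, but FR F1 replicate 1 and control F1 replicate 3 nearly met. The highest ratio, in control F1 replicate 2, rests on 41 counts of Igkc and 12 of Ighm. For comparison, 25.7% of all tested genes had groups that did not overlap in CPM, in either direction. Per heavy chain constant count, Igkc had 0.259, 0.358 and 0.344 in FR F1, against 0.574, 1 and 0.413 in control F1, again without overlap. The 3 lambda constant genes Iglc1, Iglc2 and Iglc3 held 16, 11 and 9 counts in FR F1, against 8, 4 and 10 in control F1. These ratios are of raw counts in genes of unlike length, and no test was made of them. Counts of Jchain per count of Ighm overlapped, at 1.28, 0.855 and 0.308 in FR F1, against 0.879, 0.917 and 0.192 in control F1.

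Variable segments have rows of their own, apart from the constant genes. The table lists 348 V segment rows, of which 147 had a count and 0 passed the filter. They held 267, 78 and 49 counts in FR F1, against 25, 16 and 64 in control F1. In CPM this was 99.8, 28.7 and 20.1 in FR F1, against 10.8, 7.21 and 24.5 in control F1, so that control F1 replicate 3 exceeded FR F1 replicate 3. The ratio of mean CPM was 3.49, and 1.72 without FR F1 replicate 1 and 2.80 without control F1 replicate 2.

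The V counts were spread over many segments. Counts fell on 110, 56 and 39 segments in FR F1, against 23, 14 and 47 in control F1. The most counted segment of a library held 4.12%, 6.41% and 6.12% of its V counts in FR F1, against 8.00%, 12.5% and 4.69% in control F1. Iglv1, a lambda segment, had 11, 2 and 3 counts in FR F1, against 0, 0 and 3 in control F1, and no segment had more than 19 counts in all. Of the 147 segments, 79 had counts in FR F1 alone, 15 in control F1 alone and 53 in both, with 394 V counts in FR F1 and 105 in control F1. V segments resemble one another, so counts of a single segment are uncertain.

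Genes of B cell receptor signalling were not called either: 17 of 26 were tested, with 0 higher and 0 lower and a median log2 fold change of 0.21. Prkcb, a kinase of this pathway, had 81, 12 and 12 counts in FR F1, against 8, 5 and 5 in control F1, and its log2 fold change of 2.37 was 0.88 without FR F1 replicate 1. Pik3ap1, an adaptor, had lower counts in each FR F1 library, 65, 115 and 74, against 122, 118 and 194 in control F1 (log2 fold change -0.90 ± 0.25 SE, adjusted p 0.142, edgeR).

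Fcgr2b, an inhibitory receptor for IgG that B cells and liver sinusoidal endothelium both carry, had 284, 262 and 234 counts in FR F1, against 127, 91 and 174 in control F1. The groups did not overlap, and the log2 fold change was 0.87 ± 0.19 (SE), with an adjusted p of 0.0910 by edgeR and 0.0125 by DESeq2. The summed CPM of 13 sinusoidal endothelium genes was 1014, 958 and 1168 in FR F1, against 619, 511 and 805 in control F1, also without overlap. Its part in the Fcgr2b values was not tested.

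Among 19 B cell surface genes, 4 were tested and 0 passed the adjusted threshold, with a median log2 fold change of 0.75. Cd38, an enzyme that degrades NAD and is carried by B cells and other cells, had 103, 108 and 90 counts in FR F1, against 41, 11 and 42 in control F1. The groups were well apart, with a log2 fold change of 1.56 ± 0.39 (SE) and an adjusted p of 0.116 by edgeR and 0.0107 by DESeq2. Cd22, an inhibitory coreceptor, and Cd37, a tetraspanin, had log2 fold changes of 0.88 ± 0.62 and 0.34 ± 0.47 (SE).

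Of 15 transcription factors of the B lineage, 8 were tested, 0 passed the adjusted threshold and the median log2 fold change was 0.34. Spi1, which encodes PU.1 and also serves macrophages, had a log2 fold change of 1.41 ± 0.55 (SE) with an adjusted p of 0.238 (edgeR). Tcf3, which encodes E2A, had -0.33 ± 0.15 (SE), adjusted p 0.287 (edgeR). Pax5, a factor that keeps B cell identity, missed the filter, with 9, 9 and 4 counts in FR F1, against 2, 3 and 6 in control F1.

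Genes that plasma cells use to secrete antibody went both ways. Of 15 listed, 9 were tested and 0 passed the adjusted threshold, with log2 fold changes from -0.58 to 1.89 and a median of -0.14. At an unadjusted p under 0.05, Jchain was higher and Txndc5 lower. Apart from Jchain, many of these genes also serve secretion in hepatocytes. Xbp1, a factor of the secretory pathway, had a log2 fold change of -0.14 ± 0.13 (SE), and Txndc5, a disulphide isomerase, -0.29 ± 0.11 (SE), adjusted p 0.242 (edgeR). Pigr, which encodes the receptor that carries polymeric IgA across epithelia, had -0.23 ± 0.09 (SE), adjusted p 0.223 (edgeR).

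**Figure D3:**
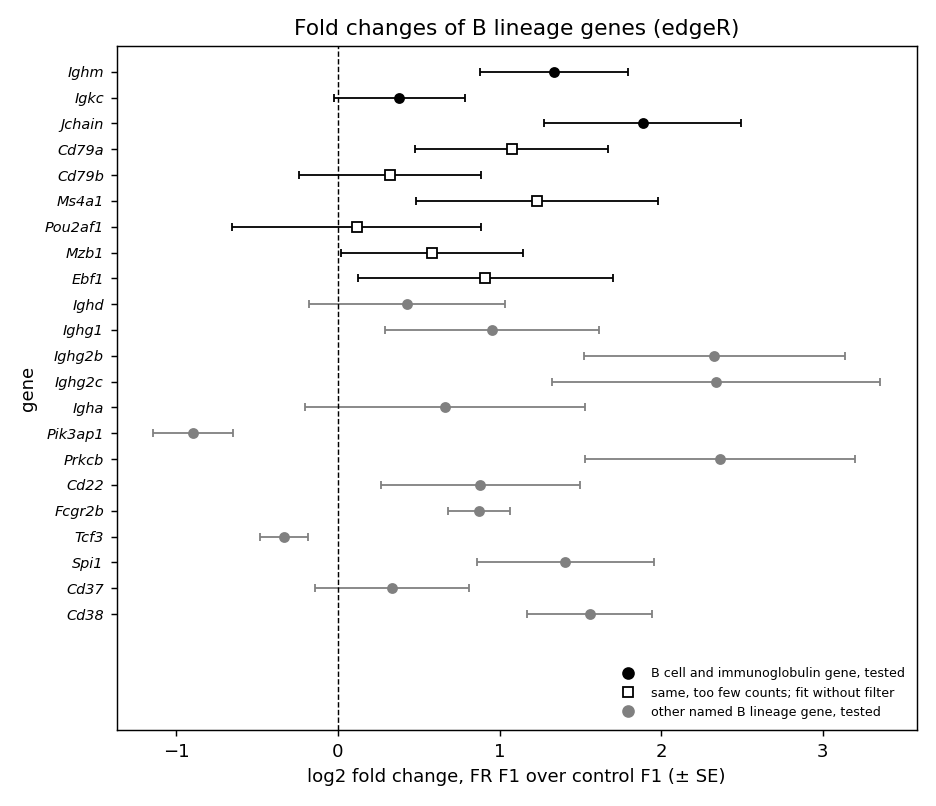
Log2 fold change of FR F1 over control F1 with its standard error for the B cell and antibody genes (black) and the other tested B lineage genes named here (grey), in 3 FR F1 and 3 control F1 libraries; open squares are genes below the filter, fitted without it. The highest values, 2.33 to 2.37, are those of Ighg2b, Ighg2c and Prkcb, and none of the genes drawn passed the adjusted threshold in the edgeR fit. For Ighm, Igkc and Jchain the fit without the filter gave smaller SE, 0.31, 0.26 and 0.37, against 0.46, 0.40 and 0.61 as drawn. Bars of open squares and filled points are therefore not comparable.

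Genes of MHC class II, with which B cells, dendritic cells and macrophages present antigen, had positive log2 fold changes in all 7 that were tested of 10, with a median of 0.94, but 0 had an unadjusted p under 0.05. Cd74, the invariant chain, had 465, 275 and 387 counts in FR F1, against 307, 70 and 159 in control F1. The summed CPM of the 10 was 314, 168 and 282 in FR F1, against 234, 53.2 and 120 in control F1, and control F1 replicate 2 was the lowest library, as it was for the heavy chain genes.

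Genes of other cell types were set beside these values. The 14 Kupffer cell and macrophage genes summed to 980, 506 and 995 CPM in FR F1, against 662, 397 and 808 in control F1, with a median log2 fold change of 0.42 and 0 called. The stellate cell and fibroblast genes had a median of 0.98, and Pdgfra was the 1 of 15 that rose, with an adjusted p of 0.0456 (edgeR), a call that was lost in 7 of 12 alternatives; 12 of the 15 were higher at an unadjusted p under 0.05, and 6 passed under DESeq2. The sinusoidal endothelium genes had a median of 0.93, with 0 of 13 called and 9 at an unadjusted p under 0.05; 5 passed under DESeq2 and 1 under limma-voom. The 8 hepatocyte genes had a median of -0.02. Their highest counts per exonic base ran from 0.258 (Serpina1c) to 0.988 (Alb), and Apob, the most counted, had 0.315. Fabp1, Apoa1 and Ttr had 0.785, 0.743 and 0.711. The highest value of any protein-coding gene was 1.05, so differences of genes toward it, such as Alb and these genes, could be understated. How far this kept the hepatocyte values alike between groups was not tested. In these 4 lists FR F1 replicate 1 lay between -0.08 and 0.44 on a log2 scale over the mean of the 6 libraries, against 1.37 for the heavy chain genes, and control F1 replicate 2 was the lowest library in all but the hepatocyte list; the part of cell makeup in the antibody values was not tested.

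**Figure D4:**
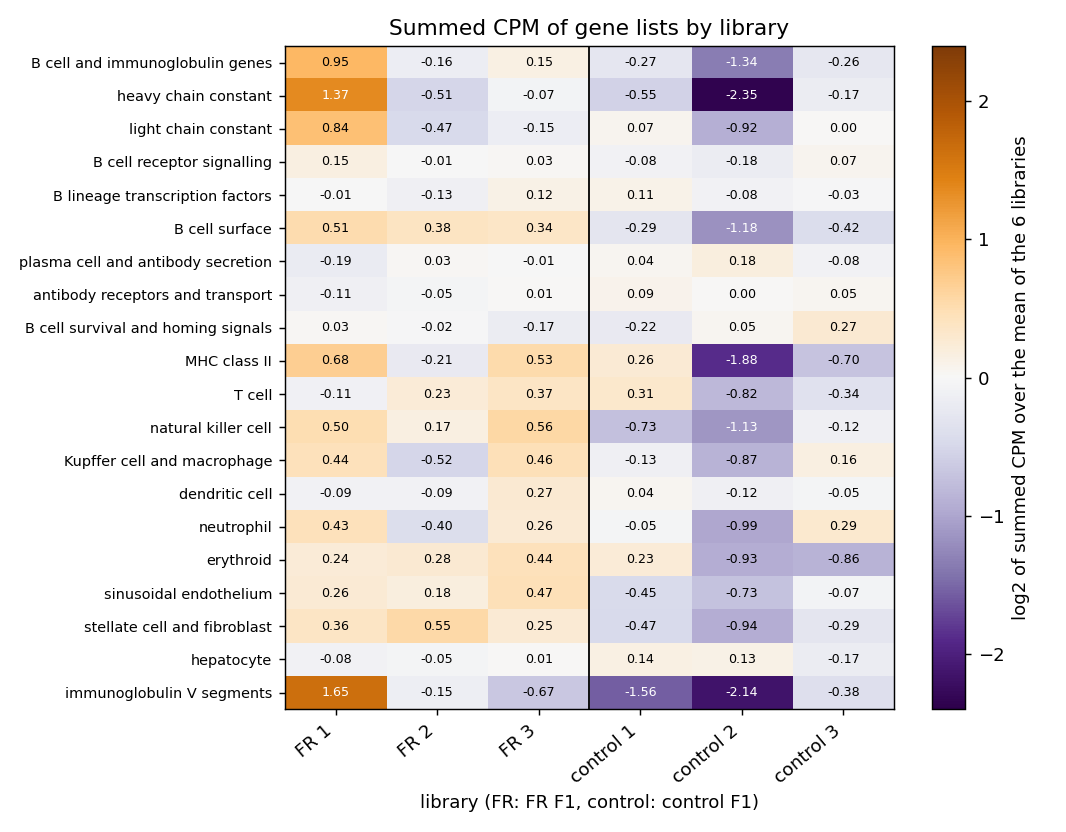
Summed CPM of each gene list in each library as log2 over the mean of the 6 libraries, with FR F1 libraries on the left and control F1 libraries on the right. The antibody lists reach 1.37 for heavy chain constant genes and 1.65 for V segments in FR F1 replicate 1. In control F1 replicate 2 they fall to -2.35 and -2.14. The hepatocyte list lies between -0.17 and 0.14. Among its genes Alb had counts per base near the highest of any protein-coding gene, followed by Fabp1, Apoa1 and Ttr, so differences of these genes could be understated.

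Among other tested genes, those whose log2 CPM followed the mean standardised level of Ighm, Igkc and Jchain most closely over the 6 libraries were Emp3, Fabp7, P2ry13, Gbp4, Iqgap1 and Vsig4, with Pearson r of 0.985 to 0.996. They were picked as the highest of all genes over only 6 libraries that share 2 groups, so r is a description of these libraries. Gbp4, an interferon-inducible guanylate-binding protein, had 59.1, 23.2 and 31.2 CPM in FR F1, against 23.0, 6.76 and 16.1 CPM in control F1. Vsig4, a complement receptor of macrophages, had 60.9, 30.2 and 43.9 CPM in FR F1, against 31.7, 13.5 and 28.0 CPM in control F1. In both, as in Igkc, FR F1 replicate 1 was the highest library and control F1 replicate 2 the lowest.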

How the data were processed

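The table that the authors deposited gives raw counts for each gene in each library. Per the submitters' processing notes, the tools were HTSeq, STAR, DESeq2 and StringTie and the build was mm10, without versions or roles. Not given in the sources used here were the annotation, the strand setting and how shared or duplicate reads were handled. RNA was extracted with Trizol, per the labels, and the library kit is named as one for DNA. Of 21769 protein-coding genes with at least 300 exonic bases, 2 exceeded 1 count per exonic base in a library; the highest value among the 9 genes was 0.316, for Igkc.

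Identifiers were matched to GENCODE M21 (53620 of 53715 genes). Library totals were 2279755 to 2730160 counts. The test was edgeR 4.0.16 under R 4.3.3 (filterByExpr at its default minima, 10 counts and a total of 15, TMM, glmQLFit, glmQLFTest, two-sided), adjusted by Benjamini-Hochberg over 13022 genes. The SE is the absolute log2 fold change over the square root of F. All pairs of replicates differed beyond counting noise. On simulated data, 27 of 100 genes changed 2-fold and 85 of 100 changed 4-fold were recovered, with 2 calls among 12822 unchanged genes.

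The 9 genes, the gene lists and the tests were chosen with earlier results of these data known. Named in each list were genes past the threshold, the 3 tested of smallest p and the 2 most counted, or fewer, plus, after their values were seen, the rest of the heavy chain genes, Pax5 and Iglv1; for likeness, the 6 genes of highest Pearson r with a mean of at least 5 CPM, on log2 values with a pseudocount of 0.5 CPM. There were 12 alternatives: DESeq2 1.42.0, limma-voom 3.58.1, RLE or no scaling factors, no filter, a replicate block and each of 6 libraries left out. Results of some of the listed genes are left out of the text.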

Additional observations from a re-analysis of the deposited data

How the results depend on the processing

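No B cell or antibody gene of the 9 passed the adjusted threshold in the fit reported above or in any alternative but the fit without the filter, where 2 passed: Ighm, with an adjusted p of 0.00131, and Jchain, with 4.46e-05. The SE of both were smaller in that fit, at nearly the same fold changes. Over all alternatives the adjusted p ran from 0.00131 to 0.449 for Ighm, from 4.46e-05 to 0.484 for Jchain and from 0.459 to 0.905 for Igkc, and the log2 fold change from 0.97 to 1.76 for Ighm, from 1.13 to 2.57 for Jchain and from -0.13 to 0.64 for Igkc. Changed genes among all tested were 109, against 423 with DESeq2, 1251 without the filter and 7 to 651 with 1 library left out (7 without FR F1 replicate 1 and 651 without control F1 replicate 1). With the replicate number as a block, 21 genes changed; same-numbered libraries deviated together with correlations of -0.0154, 0.105 and 0.148, and not every library correlated best with its own number. With 1 library left out the log2 fold change of some genes took both signs, running from -0.13 to 0.64 for Igkc, -0.20 to 1.39 for Ighg1, -0.55 to 1.30 for Igha, -0.0550 to 0.85 for Ighd, -0.0854 to 0.0323 for Cd81, -0.0170 to 0.69 for Cd37, -0.17 to 0.14 for Hsp90b1, -0.25 to 0.0022 for Cxcl12, -0.13 to 0.74 for Cd4, -0.17 to 0.0269 for Bst2 and -0.0380 to 0.12 for Stab2. Igkc, Ighg1, Igha, Cd81 and Bst2 turned without FR F1 replicate 1; Hsp90b1, Cd4 and Bst2 without FR F1 replicate 2; Stab2 without FR F1 replicate 3; Cd4 without control F1 replicate 1; Ighd, Cd81 and Cd37 without control F1 replicate 2; and Hsp90b1 and Cxcl12 without control F1 replicate 3. Hsp90b1 also turned without the filter (-0.0018). Without the filter Ighg2b, Ighg2c, Prkcb, Cd38, Fcgr2b, Pik3ap1, Spi1 and Cd74 also passed the threshold; Cd38 and Cd74 passed without control F1 replicate 1, and Fcgr2b passed without control F1 replicate 3 (adjusted p 0.0414, edgeR). The cause was not tested. Counts per library limit what can be seen for the 6 genes below the filter.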

Other observations

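The values of 1 further B cell gene were picked after they were seen. Cxcr5, a chemokine receptor that guides B cells to follicles, had 12, 8 and 8 counts in FR F1, against 2, 2 and 3 in control F1. It missed the filter, and the groups were apart. FR F1 libraries were wholly above control F1 libraries in 12.4% of genes with 20 to 60 counts in all.

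Lists of other blood cells were mostly below the filter. The 15 T cell genes summed to 28.8, 36.5 and 40.2 CPM in FR F1, against 38.6, 17.6 and 24.5 CPM in control F1, and the groups overlapped. The 9 natural killer cell genes summed to 15.3, 12.2 and 16.0 CPM in FR F1, against 6.50, 4.96 and 9.97 CPM in control F1, without overlap. Of all tested genes, 12.5% had FR F1 libraries wholly above control F1 libraries. Only 1 of the 9, Klrk1, was tested. It held 21, 11 and 14 of the 41, 33 and 39 counts in FR F1, and 5, 4 and 10 of the 15, 11 and 26 in control F1. Without the filter 6 of the 8 genes with counts had a positive log2 fold change. The 7 erythroid genes summed to 409, 419 and 470 CPM in FR F1, against 407, 182 and 190 CPM in control F1. The 10 neutrophil genes overlapped, at 15.7, 8.84 and 14.0 CPM in FR F1, against 11.3, 5.86 and 14.2 CPM in control F1.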
